A study of Mus musculus with 6 samples.

Results

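A set of 6 genes of zinc handling was followed in mouse bone marrow-derived dendritic cells. It holds the metallothionein genes Mt1 and Mt2, the transcription factor gene Mtf1, and the zinc carrier genes Slc30a1 (ZnT1), Slc39a8 (ZIP8) and Slc39a14 (ZIP14). They form the set by gene name, with no threshold on a value. All 6 were found among the 23398 genes of the deposited expression table. The cells had been treated for 12 hours with Ca(OH)2 nanoparticles (3 libraries) or with vehicle (3 libraries), and total RNA was sequenced. The labels name DMEM with 10% serum and antibiotics as the medium for both groups. They give no mouse strain, age or growth factor, and they do not say whether the libraries of a group came from separate cultures or animals, so p-values measure only the spread between these libraries, which may be technical.

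Zinc is held in the cell mainly by proteins. Metallothioneins are small, cysteine-rich proteins that bind zinc and copper and release zinc when they are oxidised. ZnT carriers (Slc30 family) move zinc out of the cytosol, across the plasma membrane or into organelles, and ZIP carriers (Slc39 family) move it into the cytosol. MTF-1, the product of Mtf1, senses free zinc and binds metal response elements in promoters, among them those of the metallothionein genes and of Slc30a1. In dendritic cells of the mouse, a fall in zinc import through ZIP6 (Slc39a6) has been linked to maturation after Toll-like receptor stimulation.

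The start regions of Mt1, Mt2 and Slc30a1 are shown first because these are the members known as MTF-1 targets. Sequences are those of RefSeq on GRCm38.p6, plus strand, and run from 250 bases before the RefSeq start to 27 bases after it. They cover chr8:94178839-94179115 for Mt1, chr8:94172368-94172644 for Mt2 and chr1:191906531-191906807 for Slc30a1. Capitals mark the core of the metal response element, TGCACNC or TGCGCNC, on either strand.

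Mt1: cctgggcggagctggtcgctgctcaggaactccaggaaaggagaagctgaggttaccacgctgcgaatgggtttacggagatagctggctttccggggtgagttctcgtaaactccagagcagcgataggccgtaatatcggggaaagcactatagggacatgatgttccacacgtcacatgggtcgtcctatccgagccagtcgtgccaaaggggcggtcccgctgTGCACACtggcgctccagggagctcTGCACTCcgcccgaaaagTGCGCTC
Mt2: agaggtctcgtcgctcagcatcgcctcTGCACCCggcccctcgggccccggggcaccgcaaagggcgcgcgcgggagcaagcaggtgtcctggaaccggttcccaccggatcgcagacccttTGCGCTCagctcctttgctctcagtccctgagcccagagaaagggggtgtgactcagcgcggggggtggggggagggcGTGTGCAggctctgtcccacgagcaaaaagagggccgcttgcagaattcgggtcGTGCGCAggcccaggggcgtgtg
Slc30a1: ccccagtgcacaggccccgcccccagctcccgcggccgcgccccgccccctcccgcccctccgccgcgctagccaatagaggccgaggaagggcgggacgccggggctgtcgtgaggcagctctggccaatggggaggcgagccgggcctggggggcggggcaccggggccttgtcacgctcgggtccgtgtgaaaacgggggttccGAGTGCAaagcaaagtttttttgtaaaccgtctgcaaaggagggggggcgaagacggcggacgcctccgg

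The full RefSeq windows of 300 bases held 3 matches for Mt1, 4 for Mt2 and 2 for Slc30a1, of which the second lies past the stretch printed, 31 to 37 bases from the start. At least 1 match was present in 25.7% of all 32851 such windows, at least 2 in 7.11%, at least 3 in 1.97% and at least 4 in 0.517%. Matches on both strands and overlapping matches were counted. Of the 5 members with a window, 4 held a match. Slc39a8 has 2 windows, 1 with a single match and 1 with none, and the window of Mtf1 had none. Slc39a14 had no entry. These letters say where the core occurs and nothing about binding. Cores outside the windows were not sought, and whether transcription in these cells begins at the RefSeq starts was not tested.

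Mt1 was by far the highest member and it rose with nanoparticles. Its gene (ENSMUSG00000031765) lies on the plus strand at chr8:94179082-94180327 in GENCODE M21 on GRCm38 and codes for protein. Its annotated exons, merged, cover that whole stretch of 1246 bases. FPKM was per this length, so the level and rank of Mt1 depend on it. The level was 278, 329.7 and 298 FPKM (fragments per kilobase of transcript on a library scale set by the authors) in vehicle libraries 1 to 3 and 527, 622 and 653 FPKM in nanoparticle libraries 1 to 3. Every nanoparticle library stood above every vehicle library. The means were 302 ± 25.9 and 601 ± 65.5 FPKM (SD, n = 3 each), a 1.99-fold difference, which placed Mt1 at rank 113 of the 23398 genes in vehicle and at rank 88 with nanoparticles. The log2 change was 0.99 on the log2(FPKM + 1) scale used throughout (SE 0.150, limma adjusted p = 0.0037). It stayed past the threshold of 0.05 under all 12 other settings tried, and without nanoparticle library 1 it was 1.08. Its size depends on the scaling between libraries: it was 0.64 with libraries scaled by their read totals and 0.52 with values scaled to equal sums, where the median of all tested genes moved from 0.00 to -0.28 and -0.38.

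Mt2 (ENSMUSG00000031762), the neighbour of Mt1 on the same strand at chr8:94172664-94173568, was listed at very low values in all libraries. These were 0, 0.343 and 0.0815 FPKM in vehicle libraries 1 to 3 and 0.521, 1.03 and 0.618 FPKM in nanoparticle libraries 1 to 3. They rest on 0, 4 and 1 reads and on 5, 10 and 7 reads, recovered from the deposited values as whole numbers, while Mt1 had 6913, 8145 and 7744 reads and 10724, 12825 and 15674 reads in the same libraries. The nanoparticle libraries lay above the vehicle libraries, by as little as 1 read. Summed reads were 22 with nanoparticles and 5 in vehicle, a ratio of 5.12 after correction for the deposited library scale. The exact 95% interval of 1.89 to 17.3 covers counting error only. The ratio was not computed with scaling by read totals, under which the change of Mt1 was smaller. Mt2 missed the filter of at least 1 FPKM in at least 3 libraries and so was not tested with the other genes. In a fit with no filter its log2 change was 0.59 (limma adjusted p = 0.0654), and an exact permutation test over the 6 libraries gave p = 0.1, two-sided, the smallest this design allows.

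The low level of Mt2 coincides with an overlap in the annotation. Of its 588 exon bases, 432 also lie within an exon of Gm45774, an antisense gene on the minus strand at chr8:94170748-94173412, and 156 lie in no other gene. Gm45774 itself was at 0.230 FPKM or less in every library, from 0 to 10 reads. Strand is not stated in the sources used here, and without strand, reads of a gene and of its antisense partner cannot be told apart. How reads within both genes were counted is not stated either, and its part in the Mt2 values was not tested. The values of Mt2 are therefore uncertain as levels. Mt1 shares no exon base with another gene.

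**Figure D1:**
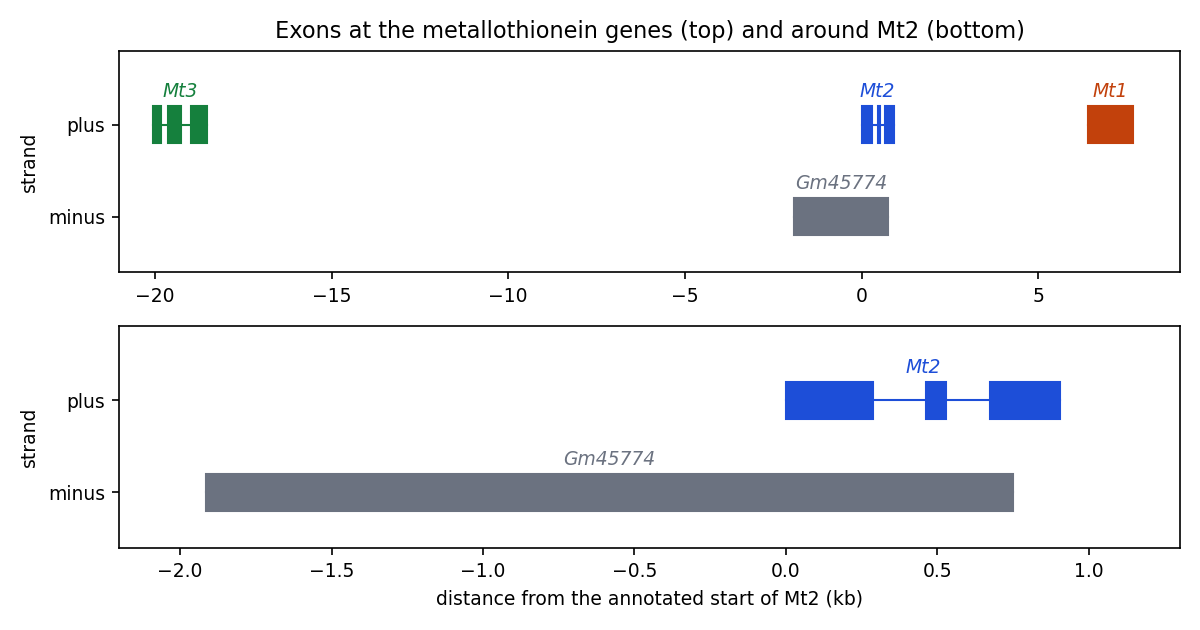
Exons of Mt3, Mt2, Mt1 and the antisense gene Gm45774 in GENCODE M21, by distance in kilobases from the annotated start of Mt2 (boxes are merged exons, lines introns, rows the strand), with the region around Mt2 enlarged below. The single exon of Gm45774 covers 432 of the 588 exon bases of Mt2 and reaches none of Mt1. Mt1 shows as a single block because its annotated exons, merged, cover the whole gene.

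Slc30a1 codes for ZnT1, the main zinc exporter of the plasma membrane. Its gene (ENSMUSG00000037434) lies on the plus strand at chr1:191906767-191913247. The level was 5.93, 6.36 and 5.98 FPKM in vehicle libraries 1 to 3 and 12.01, 7.56 and 8.59 FPKM in nanoparticle libraries 1 to 3. On the deposited scale the groups did not overlap, and nanoparticle library 1 was the highest. As a share of recovered reads, nanoparticle library 2 (656 of 18475743) lay within the range of vehicle libraries 1 to 3 (620 of 17724289, 661 of 17310350 and 655 of 18248825). Means of 6.09 ± 0.232 and 9.38 ± 2.33 FPKM (SD, n = 3 each) differed 1.54-fold, or by 0.53 on the log2 scale (SE 0.166, limma adjusted p = 0.0529), just short of the threshold. Leaving out nanoparticle library 1 gave 0.35 (limma adjusted p = 0.0070), a smaller difference with a smaller spread, and leaving out nanoparticle library 2 gave 0.66 (limma adjusted p = 0.0389). Leaving out any of the other 4 libraries gave limma adjusted p from 0.0809 to 0.157, past the threshold in none. Scaled by read totals the log2 change was 0.22 (limma adjusted p = 0.334), and with equal sums it was 0.12 (limma adjusted p = 0.675). Of its 5244 exon bases, 468 are shared with the antisense gene 1700034H15Rik, which had 0 to 7 reads per library.

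Mtf1 (ENSMUSG00000028890), on the plus strand at chr4:124802104-124849800, varied among the nanoparticle libraries rather than between the groups. Its level was 2.41, 2.27 and 2.26 FPKM in vehicle libraries 1 to 3 and 3.84, 2.29 and 1.54 FPKM in nanoparticle libraries 1 to 3. Nanoparticle library 1 was above, library 2 within and library 3 below the vehicle range. The means were 2.31 ± 0.0819 and 2.56 ± 1.17 FPKM (SD, n = 3 each), and the log2 change was 0.05 (SE 0.231, limma adjusted p = 0.883). Its sign rested on nanoparticle library 1, without which it was -0.20 (limma adjusted p = 0.203), and on the scaling. The last 721 of its 8907 exon bases overlap the antisense protein-coding gene 1110065P20Rik, at 61 to 107 reads per library against 265 to 559 reads for Mtf1.

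Slc39a14 codes for ZIP14, which carries zinc, manganese and iron into the cell. Its gene (ENSMUSG00000022094) lies on the minus strand at chr14:70303469-70351425 and shares no exon base with another gene. The level was 3.84, 3.71 and 3.72 FPKM in vehicle libraries 1 to 3 and 3.99, 4.55 and 3.49 FPKM in nanoparticle libraries 1 to 3. The groups overlapped, with nanoparticle libraries on both sides of the vehicle values. The log2 change was 0.07 (SE 0.109, limma adjusted p = 0.665), between means of 3.76 ± 0.0712 and 4.01 ± 0.531 FPKM (SD, n = 3 each).

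Slc39a8 codes for ZIP8, a carrier of zinc, manganese and cadmium. Its gene (ENSMUSG00000053897) lies on the plus strand at chr3:135825279-135888572 and shares no exon base with another gene. It was below 1 FPKM in every library, at 0.648, 0.480 and 0.656 FPKM in vehicle libraries 1 to 3 and 0.591, 0.315 and 0.210 FPKM in nanoparticle libraries 1 to 3. These values rest on 73 to 105 and 31 to 74 reads. Nanoparticle libraries 2 and 3 lay below all vehicle libraries and library 1 lay within their range. Slc39a8 missed the filter. In the fit with no filter the log2 change was -0.22 (limma adjusted p = 0.333), with means of 0.595 ± 0.0993 and 0.372 ± 0.197 FPKM (SD, n = 3 each).

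**Figure D2:**
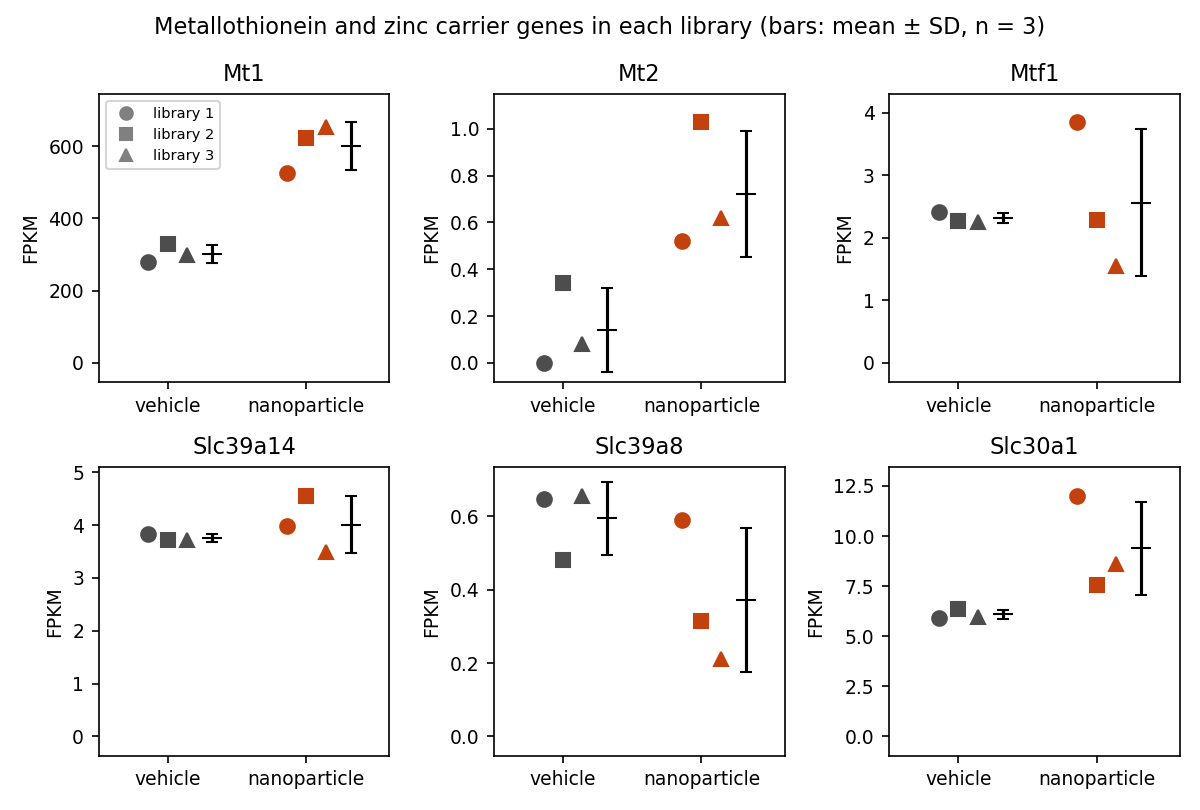
FPKM of each member (vertical axes, each on its own linear scale) in the 3 vehicle (grey) and 3 nanoparticle (orange) libraries, with symbols for library number and bars for mean ± SD. On the deposited scale the groups are apart for Mt1, Mt2 and Slc30a1, and the nanoparticle libraries spread to both sides of the vehicle libraries for Mtf1 and Slc39a14.

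The order of deposited values in vehicle was Mt1, Slc30a1, Slc39a14, Mtf1, Slc39a8 and Mt2, and no neighbours in it overlapped across libraries. The place of Mt2, which had 0, 4 and 1 reads in vehicle, is as uncertain as its level. With nanoparticles Mt2 stood before Slc39a8, but these overlapped, as did Slc39a14 and Mtf1. Of the 6 members, 4 were tested, 1 was called (Mt1, higher) and 0 were lower past the threshold. Over all 10682 tested genes 33.2% were called, 17.0% higher and 16.2% lower. On the deposited scale the groups did not overlap in 2 of the 4 tested members (Mt1 and Slc30a1), against 52.1% of all tested genes. Both counts are near these background shares.

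The wider zinc system was read from a list of 29 genes, the 4 metallothioneins with Mtf1, 10 ZnT carriers and 14 ZIP carriers. Of these, 27 were in the table (Mt4 and Slc30a10 were not listed) and 20 were tested. Past the threshold, 4 were higher (Slc39a2, Mt1, Slc39a1 and Slc30a6), 3 were lower (Slc39a10, Slc30a5 and Slc39a6) and 13 were not called. The median log2 change of the 20 genes was 0.02, beside 0.00 over all tested genes. The 7 of 20 called are near the 33.2% over all tested genes. With libraries scaled by read totals, 4 were higher and 8 lower, where 44.2% of all tested genes were called, 10.4% higher and 33.8% lower. Without nanoparticle library 1, 7 were higher and 6 lower, where 64.8% of all tested genes were called, 34.3% higher and 30.5% lower.

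**Figure D3:**
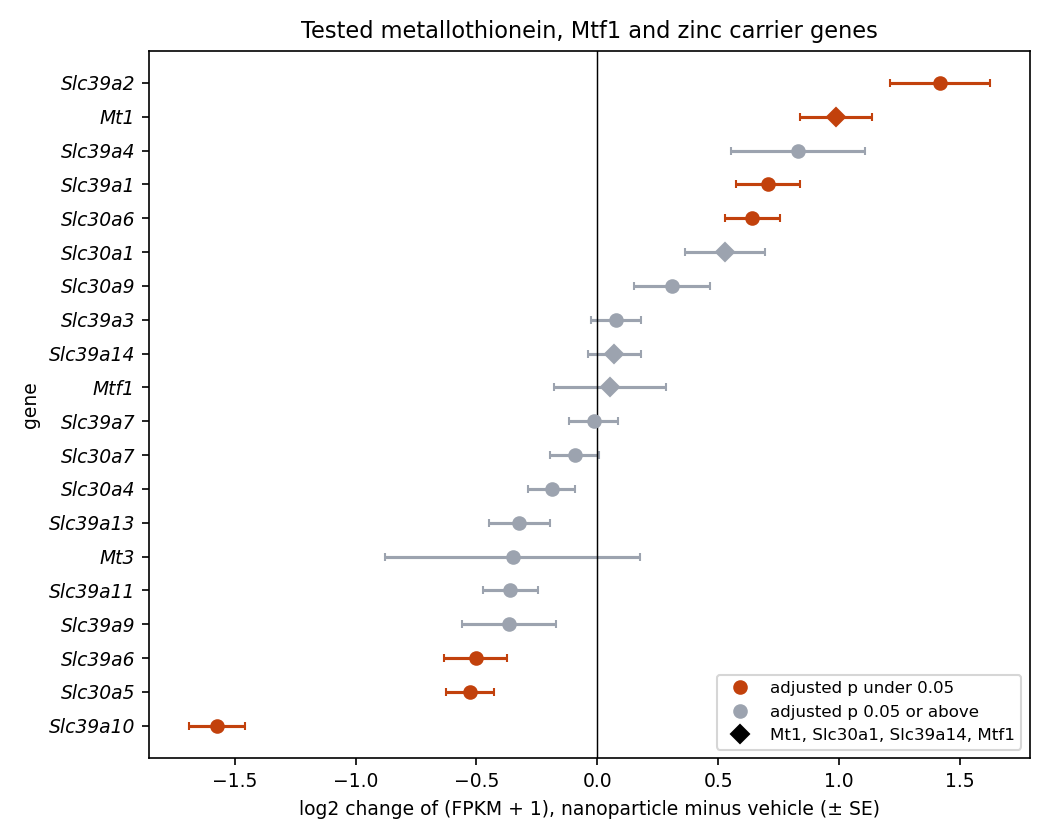
Log2 change of (FPKM + 1), nanoparticle minus vehicle, with SE (horizontal axis) for the 20 tested genes of the zinc list; orange marks an adjusted p under 0.05 and diamonds mark Mt1, Slc30a1, Slc39a14 and Mtf1. Slc39a2 at 1.42 and Slc39a10 at -1.57 lie at the ends, and Mt1 at 0.99 is second from the top.

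Among the importers, Slc39a10 (ZIP10, a plasma membrane importer for which repression through MTF-1 has been described) fell. It was at 8.65, 6.94 and 7.66 FPKM in vehicle libraries 1 to 3 and at 1.81, 1.81 and 2.20 FPKM in nanoparticle libraries 1 to 3, a 3.99-fold lower mean. The log2 change was -1.57 (SE 0.116, limma adjusted p = 2.7e-04), and the call held under all 12 other settings. Slc39a6 (ZIP6, a close relative of ZIP10) fell less, from 18.07 ± 0.798 to 12.5 ± 1.94 FPKM (SD, n = 3 each), and the log2 change was -0.50 (SE 0.130, limma adjusted p = 0.0275). This call was lost in the fit with a replicate block (adjusted p = 0.0756) and on leaving out any of 5 of the 6 libraries, nanoparticle library 1 being the exception (adjusted p 0.0504 to 0.115 when lost). Scaling made the log2 change of Slc39a6 larger, at -0.83 by read totals and -0.94 with equal sums.

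Slc39a2 and Slc39a1, also importers, were higher with nanoparticles. Slc39a2 (ZIP2, at the plasma membrane) rose from 5.97, 6.31 and 5.97 FPKM in vehicle libraries 1 to 3 to 25.2, 14.5 and 15.6 FPKM in nanoparticle libraries 1 to 3. Nanoparticle library 1 was the highest. The mean was 3.03-fold higher, and the log2 change was 1.42 (SE 0.207, limma adjusted p = 0.0032). It shares 151 of its 3447 exon bases with Mettl17 on the same strand. Slc39a1 (ZIP1), the highest carrier of the list, rose from 57.9 ± 2.79 to 95.6 ± 12.1 FPKM (SD, n = 3 each). Its log2 change was 0.71 (SE 0.131, limma adjusted p = 0.0080). With values scaled to equal sums this was 0.24 (adjusted p = 0.0694). Slc39a4 was not called, at 1.34 to 2.78 FPKM in vehicle and 2.997 to 6.13 FPKM with nanoparticles (limma adjusted p = 0.0633). Its groups did not overlap on the deposited scale. Uncalled ZIP genes also went the other way without overlap. Slc39a11 was at 16.5 to 19.1 FPKM in vehicle and 12.3 to 14.8 FPKM with nanoparticles (limma adjusted p = 0.0536). Slc39a13 was at 5.43 to 5.86 and 3.50 to 4.74 FPKM (limma adjusted p = 0.0971). It shares 215 of its 4869 exon bases with Psmc3 on the opposite strand. Psmc3 had 1701 to 3202 reads per library against 278 to 596 for Slc39a13.

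ZnT5 and ZnT6, the products of Slc30a5 and Slc30a6, work as a pair that brings zinc into the early secretory pathway, and their transcripts moved in opposite directions. Slc30a6 was at 5.14 ± 0.368 FPKM in vehicle and rose to a mean of 8.60 ± 0.970 FPKM (SD, n = 3 each). On the log2 scale the difference was 0.64 (SE 0.113, limma adjusted p = 0.0064), or 0.23 with values scaled to equal sums (limma adjusted p = 0.154). Slc30a5 was at 6.70 ± 0.339 FPKM in vehicle and fell to a mean of 4.35 ± 0.421 FPKM (SD, n = 3 each), which on the log2 scale was -0.53 (SE 0.101; limma adjusted p = 0.0089). Without vehicle library 1 or 3 the Slc30a5 call was lost by a small margin (adjusted p = 0.0534 and 0.0513). Its log2 change was -0.82 scaled by read totals and -0.92 with equal sums. Slc30a4, Slc30a7 and Slc30a9 were at 2.73 to 11.5 FPKM and were not called. Among these only Slc30a4 had groups that did not overlap, lower with nanoparticles (limma adjusted p = 0.190).

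Mt3, the metallothionein best known from brain, was at 8.24, 7.997 and 6.51 FPKM in vehicle libraries 1 to 3. Nanoparticle libraries 2 and 3 were above this at 9.75 and 9.30 FPKM, and library 1 was far below at 1.72 FPKM (30 reads). The log2 change was -0.35 (SE 0.529, limma adjusted p = 0.654). Slc39a7 (ZIP7), which releases zinc from the endoplasmic reticulum, was at 2.16 to 2.63 FPKM in all libraries and was not called. As with Mt2, most of its exon bases (2084 of 2584) are shared with another gene, the transcript Gm20427 on the same strand, so its level is uncertain too. Slc30a2, Slc30a3 and Slc30a8 had 3 reads or fewer in every library. Slc39a12 had 9 to 24 reads in vehicle and 0 to 5 with nanoparticles, and Slc39a5 had 9 to 66 reads in all libraries.

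**Figure D4:**
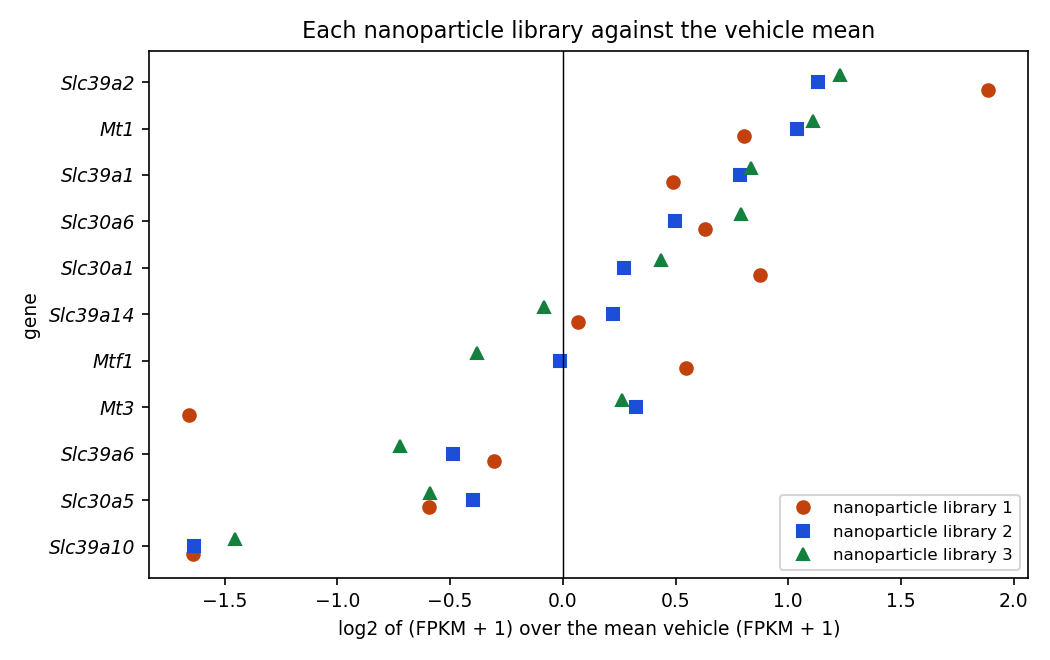
Log2 of (FPKM + 1) in each nanoparticle library relative to the vehicle mean (horizontal axis) for the called zinc genes, the tested members and Mt3; symbols and colours mark the library. Nanoparticle library 1 stands apart for Mt3, Slc39a2 and Slc30a1, and by less for Mt1 and Slc39a1. For Mtf1 all 3 libraries are spread out. The 3 libraries lie on the same side of 0 for each called gene, which the choice of called genes itself favours.

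Nanoparticle library 1 also stood apart over all genes. Pearson's r of log2(FPKM + 1) over the tested genes, which are not independent, was 0.993 to 0.994 among the vehicle libraries. Nanoparticle libraries 2 and 3 reached 0.990 with each other, but library 1 reached no more than 0.942 with library 2 and 0.928 with library 3. Recovered totals were 17310350 to 22002494 reads per library. Among marker lists for the cells such a culture may hold, the 10 dendritic cell markers summed to 6111 to 6549 FPKM in vehicle and 3503 to 7834 FPKM with nanoparticles, with Itgax, Cd74, H2-Aa and H2-Ab1 lowest in nanoparticle library 1 and Flt3 under 0.1 FPKM in all libraries. Of these markers 2 were higher (Ccr7 and Irf8) and 3 lower (Clec10a, Zbtb46 and Cd209a) past the threshold. The 10 macrophage markers summed to 1130 to 1284 and 1011 to 1231 FPKM, with 3 higher and 5 lower. The 12 neutrophil markers summed to 266 to 299 and 232 to 306 FPKM, with 2 higher and 1 lower. Most of the vehicle sum was Mmp8, which fell from 230 to 259 FPKM to 129 to 133 FPKM. S100a8 rose from 33.4 to 36.0 FPKM to 50.1 to 109 FPKM, and Lcn2 from 0.146 to 0.346 FPKM to 46.4 to 52.5 FPKM. Mpo was near 0, and Elane, Prtn3, Ly6g and Ltf were at 0.315 FPKM or less in every library. S100a9 was at 0.962 to 1.65 FPKM in vehicle and 0.352, 13.2 and 10.2 FPKM in nanoparticle libraries 1 to 3 (limma adjusted p = 0.246). In the same order, Ngp was at 0.246 to 0.901 FPKM and 0.0501, 4.30 and 3.23 FPKM. Camp was at 0 to 0.190 FPKM and 0.242, 1.83 and 1.99 FPKM. Cxcr2 was at 0.395 to 0.801 FPKM in vehicle and 0 to 0.139 FPKM with nanoparticles. The 7 mast cell and basophil markers listed summed to 3.93 to 6.16 and 10.3 to 26.1 FPKM, with Hdc higher and Gata2 lower, and Mcpt8 and Ms4a2 near 0. B cell, T cell and erythroid markers summed to 0.538 FPKM or less in every library. The part of cell composition in the zinc gene results was not tested, and in bulk RNA fewer cells of a type and less RNA per cell cannot be told apart.

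The genes most like each tested member were sought by Pearson's r of log2(FPKM + 1) over the 6 libraries, among 6099 other genes with a mean of at least 5 FPKM. With 6 libraries in 2 groups such values are easily high: 579 genes had r above 0.95 with Mt1, 276 with Slc30a1, 78 with Mtf1 and 1 with Slc39a14. Nearest to Mt1 were Fastk and Gtf2a1 (r = 0.9992 and 0.9991), and nearest to Mtf1 was Usp32 (r = 0.9996). Nearest to Slc30a1 were Ldha, a glycolytic enzyme gene, and Hsdl1 (r = 0.995 and 0.993). Ldha was at 246 to 259 FPKM in vehicle and, like Slc30a1, was highest in nanoparticle library 1, at 561 FPKM against 332 and 361 FPKM in libraries 2 and 3. Nearest to Slc39a14 were Abcf3 and Bahd1 (r = 0.984 and 0.948).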

How the data were processed

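Groups and replicate numbers come from the treatment labels and titles. The authors deposited 2 tables with 140388 values each, all identical between them. No header or label names the unit, and the values were taken as FPKM deposited by the authors, since 95.8% to 96.1% of them per library became whole reads (within 0.01) when multiplied by GENCODE M21 exon length and 1 scale per library. The submitters' processing notes name CASAVA, STAR 2.5, HTSeq, edgeR 3.16.5 and DESeq2 and the builds hg19 and mm10, without roles. Gene lengths were fitted to whole reads for 243 of 244 genes, abundant ones or genes of the zinc list, whose values were not whole in every library at the annotated length. Of the gene IDs, 23366 were in GENCODE M21 and 32 were not. The handling of reads shared between genes and the scaling between libraries are not given in the sources used here.

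Genes at 1 FPKM or more in at least 3 libraries (10682) were tested with limma 3.58.1 in R 4.3.3 on log2(FPKM + 1), with group as the single term, eBayes with a mean-variance trend, and Benjamini-Hochberg adjustment over all tested genes, threshold 0.05. The pseudocount of 1 understates the change of low genes. The fit was tested on simulated data, with the same dispersion in both groups and no library that stood apart. That test therefore does not cover a spread like that of the nanoparticle libraries here. Permutation tests and intervals used scipy 1.17.1 in Python 3.11.15. Members, lists and tests were chosen with earlier results of these data known. Named genes are the members, called genes of the zinc list, and the 2 most correlated genes per tested member. For Mtf1, 1 of these is not reported here. Other genes of the list and markers were named after their values were seen.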

Additional observations from a re-analysis of the deposited data

How the results depend on the processing

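The 12 other settings were a pseudocount of 0.1, no filter, scaling by recovered read totals or to equal sums of values, no variance trend, a replicate block, and leaving out each library in turn. The count of genes past the threshold was 3550. It was 2141 to 6923 when 1 library was left out, highest without nanoparticle library 1, and 2785 (replicate block) to 5187 (equal sums) otherwise. The split of 1817 higher and 1733 lower became 1109 and 3610 with scaling by read totals and 881 and 4306 with equal sums. Called members numbered 1, or 1 to 2 when 1 library was left out, the second being Slc30a1. Called genes of the zinc list numbered 7, which became 12 with scaling by read totals and 5 to 13 when 1 library was left out.

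The log2 change of Mtf1 reversed to -0.19 with scaling by read totals and to -0.27 with equal sums, and ran from -0.20 to 0.27 with 1 library left out. That of Slc39a14 reversed to -0.20 and -0.30, and ran from -0.0071 (without nanoparticle library 2) to 0.15. Both scalings lower the nanoparticle libraries against vehicle, and the median of all tested genes moved down with them. Deposited values summed to 321728 to 328384 in vehicle and 400186 to 491404 with nanoparticles. A single read was worth 47.9 to 50.4 in vehicle and 51.9 to 61.2 with nanoparticles, in units of value times exon length. Why the deposited scale differs from read totals was not tested. With 1 library left out, the log2 change of Slc30a1 ran from 0.35 to 0.66 and that of Mt1 from 0.92 to 1.08. With read totals and equal sums they were lower, at 0.22 and 0.12 for Slc30a1 and 0.64 and 0.52 for Mt1. Of 72 values of the 6 other called zinc genes, 62 kept their call, 10 lost it and 0 reversed.

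Deviations from the group mean over the tested genes correlated at 0.0654, 0.113 and -0.0577 between same-numbered libraries of the 2 groups. Between differently numbered ones the correlations were -0.129 to 0.108. With 3 libraries per group this cannot exclude pairs. The numbers were not taken as pairs in the main fit. With the replicate block 2785 genes passed, Mt1 among them (adjusted p = 0.0194). Depth limits what can be said of Mt2, at 0 to 10 reads per library.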
